A study of Mus musculus with 10 samples.

Results

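The inflammasome and pyroptosis genes described here are 9 genes that let a macrophage sense danger in its cytosol, activate inflammatory caspases and break its own membrane. They are the sensor genes *Nlrp3*, *Nlrc4*, *Naip5* and *Mefv*, the adaptor gene *Pycard*, the caspase genes *Casp1* and *Casp4*, and the effector genes *Gsdmd* and *Ninj1*. They were chosen by name, for their role in this pathway, but with earlier results of these data known. All 9 were found among the 55573 genes of the deposited table. All 9 also passed the filter on low values, as did 11978 genes in all, because they reached 1 CPM in 2 or more libraries. CPM is the read count of a gene after every library has been scaled to 1 common total.

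RNA-Seq was performed on bone marrow–derived macrophages (BMDMs), cells grown out of mouse marrow with the growth factor M-CSF. The donors were wild-type (WT) female C57BL/6 mice, whose ages the labels do not give. The cells of every group were exposed for 4 hours, and 2 libraries were made per group, 10 in all. The question was how the response to single-stranded RNA with guanine nucleosides compares with the response to a synthetic agonist of TLR7, the endosomal receptor for single-stranded RNA.

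The vehicle group received no agonist. The polyU group received 5 μg of poly-uridine RNA packed in the cationic lipid DOTAP, which brings RNA into endosomes. The PNPi+dG/rG group received 1 μM ulodesine, an inhibitor of the purine-degrading enzyme PNP, with 5 μM deoxyguanosine and 5 μM guanosine. The PNPi+dG/rG+polyU group received all of these agents. The R848 group received 1 ng/mL of the imidazoquinoline R848. DOTAP was given only with polyU, so effects of the RNA and of its carrier cannot be told apart. Ulodesine, deoxyguanosine and guanosine were likewise given only together, so effects of the inhibitor and of the added nucleosides cannot be told apart. The labels call the libraries of a group biological replicates without saying that they came from separate mice or cultures, so the p-values measure the spread between these libraries, which may be partly technical.

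Depth ran from 14128124 to 38392591 reads on genes, so that 3 reads, taken as the floor of detection, were worth between 0.0781 and 0.212 CPM. The deepest libraries were those of PNPi+dG/rG, and the shallowest those of PNPi+dG/rG+polyU. The thinnest value of the 9 genes, *Mefv* in vehicle replicate 2, rested on 106 reads. Within the 45 pairs of replicates of these genes, the higher library exceeded the lower by a median of 1.06 times and by at most 1.25 times. Macrophage identity was checked with 7 markers, which summed to between 12957 and 17552 CPM and were all above 1 CPM in every group. Most of that sum was *Lyz2*, at 7756 to 11494 CPM. Single markers moved in both directions. *Mertk* went from 40.3 and 40.6 CPM with vehicle to 9.84 and 8.16 after PNPi+dG/rG+polyU and to 5.36 and 5.66 after R848. *Fcgr1* went from 161 and 166 CPM to 195 and 198 and to 76.2 and 80.1 in the same groups. *Adgre1* was higher after both treatments, and *Cd68*, *Csf1r* and *Lyz2* were lower by less than 2-fold. *Itgam* was lower after the former alone. Lists of 4 B cell, 4 dendritic cell and 4 epithelial markers summed to at most 0.625, 0.991 and 0.899 CPM in any library. A list of 5 T cell markers, nearly all of it *Cd4*, summed to between 5.14 and 8.82 CPM outside R848 and to 0.584 and 1.10 CPM in R848. Of the defining markers of these lists and of neutrophils, *Ly6g*, *Cd3e*, *Cd3d*, *Xcr1* and *Krt8* were at 0 in all 10 libraries. The R848 libraries stood apart in a list of 5 fibroblast markers, which summed to between 103 and 110 CPM there and to at most 1.26 CPM elsewhere. A list of 7 neutrophil markers summed to between 23.0 and 25.2 CPM in R848, nearly all of it *S100a8*, and to at most 8.85 CPM elsewhere. Its members did not move together. *Camp* was at 1.91 and 1.81 CPM in R848 against 0 and 0.0562 with vehicle. *S100a9* was lower in R848, at 0.0531 and 0 CPM against 1.18 and 1.46, and *Ltf* was at 0 against 0.617 and 1.07. *Mpo* and *Elane* had no read in R848 and at most 0.112 CPM with vehicle. A list of 4 endothelial markers, mostly *Kdr* and *Vwf*, summed to between 207 and 246 CPM in vehicle, polyU and PNPi+dG/rG, to 143 CPM in both PNPi+dG/rG+polyU libraries and to 64.5 and 69.8 CPM in R848. The part of these other markers in the results below was not tested.

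Inflammasomes are protein platforms that form when a sensor in the cytosol meets its trigger. Sensors recruit the adaptor ASC, encoded by *Pycard*, and through it caspase-1, which matures IL-1β and IL-18 and cuts gasdermin D. Mouse caspase-11, encoded by *Casp4*, binds bacterial lipopolysaccharide in the cytosol and cuts gasdermin D directly, without a sensor complex of that kind. Cut gasdermin D forms membrane pores, and NINJ1 then ruptures the membrane, which ends in the lytic death called pyroptosis. In macrophages, signals from Toll-like receptors are known to raise some of these transcripts in a step called priming, whereas assembly needs a further trigger. RNA-Seq reads the transcripts alone, and neither assembly nor cleavage nor death was measured here.

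The 9 genes lie on 7 chromosomes of the mouse genome build GRCm38, at the positions given by GENCODE release M21. The caspase genes are neighbours on the forward strand of chromosome 9, with *Casp1* (ENSMUSG00000025888) at chr9:5298517-5307265 and *Casp4* (ENSMUSG00000033538) at chr9:5308828-5336783, so that only 1562 bp separate the end of the former from the start of the latter. *Nlrp3* (ENSMUSG00000032691) lies at chr11:59541568-59566956 on the forward strand and *Mefv* (ENSMUSG00000022534) at chr16:3707218-3718097 on the reverse strand. *Nlrc4* (ENSMUSG00000039193) spans chr17:74425438-74459142 and *Pycard* (ENSMUSG00000030793) spans chr7:127989708-127993867, both on the reverse strand. *Gsdmd* (ENSMUSG00000022575) is at chr15:75862327-75867408 on the forward strand. *Naip5* (ENSMUSG00000071203), at chr13:100211739-100246323 on the reverse strand, and *Ninj1* (ENSMUSG00000037966), at chr13:49187485-49196244 on the forward strand, share a chromosome. *Nlrc4* overlaps a processed pseudogene on its own strand that never exceeded 0.169 CPM, and *Pycard* overlaps an unconfirmed transcript on the other strand that never exceeded 0.349 CPM. *Naip5* belongs to a cluster of near-identical genes, so that reads of 50 bp may be divided between its copies and its values are uncertain.

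To show what lies at the starts of the 4 genes that were called after PNPi+dG/rG+polyU, the RefSeq promoter windows of build GRCm38.p6 are printed here. Each runs 5′ to 3′ on the strand of the gene, from 250 bases before the annotated start through the 50 bases that follow. Capitals mark letters that match the NF-κB consensus, searched on both strands. 1 of the windows listed for each gene is shown.
Casp4, chr9:5308599-5308898, forward strand: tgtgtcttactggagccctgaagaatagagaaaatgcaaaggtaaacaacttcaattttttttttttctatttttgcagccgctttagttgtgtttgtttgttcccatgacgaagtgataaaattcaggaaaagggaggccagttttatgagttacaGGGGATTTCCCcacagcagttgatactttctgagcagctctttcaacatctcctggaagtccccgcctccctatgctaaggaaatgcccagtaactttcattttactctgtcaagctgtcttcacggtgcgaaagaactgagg
Casp1, chr9:5298267-5298566, forward strand: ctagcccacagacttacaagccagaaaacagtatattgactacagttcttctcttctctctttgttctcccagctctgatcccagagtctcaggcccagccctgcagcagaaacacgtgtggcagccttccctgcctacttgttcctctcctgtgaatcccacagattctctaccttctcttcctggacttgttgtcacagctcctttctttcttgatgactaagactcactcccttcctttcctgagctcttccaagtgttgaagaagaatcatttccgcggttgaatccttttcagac
Nlrp3, chr11:59541319-59541618, forward strand: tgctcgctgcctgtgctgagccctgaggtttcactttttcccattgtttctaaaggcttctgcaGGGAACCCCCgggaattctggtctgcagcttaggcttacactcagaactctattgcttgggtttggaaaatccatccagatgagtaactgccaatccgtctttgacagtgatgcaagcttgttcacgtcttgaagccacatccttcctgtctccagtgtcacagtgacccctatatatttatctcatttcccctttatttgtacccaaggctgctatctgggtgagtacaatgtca
Mefv, chr16:3718075-3718374, reverse strand: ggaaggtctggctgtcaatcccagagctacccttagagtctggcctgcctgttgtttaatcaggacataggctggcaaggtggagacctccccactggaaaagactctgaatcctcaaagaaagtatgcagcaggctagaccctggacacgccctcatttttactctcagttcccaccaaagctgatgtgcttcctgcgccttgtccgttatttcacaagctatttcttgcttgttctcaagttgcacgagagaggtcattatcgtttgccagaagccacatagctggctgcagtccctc

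In the *Casp4* window, 2 overlapping matches to the NF-κB consensus lay from 93 to 84 and from 92 to 83 bases before the start. The *Nlrp3* window shown held 1 match, read on the opposite strand, but the second *Nlrp3* window that RefSeq lists, not shown, held none. The *Mefv* and *Casp1* windows held none either. Of the 32851 RefSeq windows of this length, 4.51% held a match to the same consensus. The windows of the 8 members that RefSeq lists, 10 in all, were also searched on both strands for the interferon-stimulated response element core GAAANNGAAA (in 3.44% of all windows), GAS TTCNNNGAA (8.30%), AP-1 TGANTCA (7.81%) and the PU.1 core GAGGAAG (13.6%). Of these only the PU.1 core was found, in the *Pycard* window and in the second *Nlrp3* window, and the NF-κB consensus also matched in the *Naip5* window. A match describes the letters of a window and says nothing of binding in these cells.

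**Figure D1:**
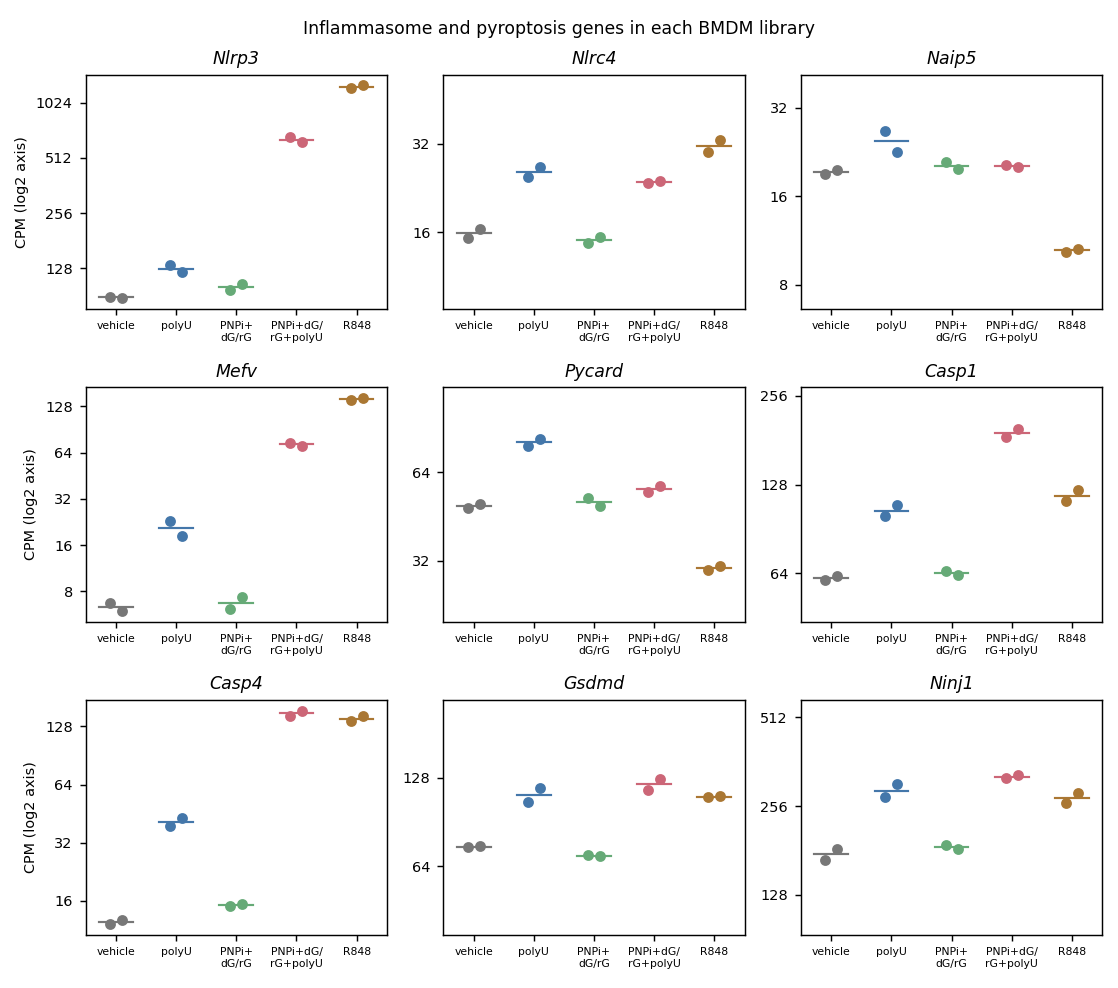
Each panel plots the CPM of 1 gene on its own log2 axis, with a dot for each of the 10 libraries and a line at the mean of each group. *Nlrp3* and *Mefv* were highest in both R848 libraries, *Casp1* was highest in both PNPi+dG/rG+polyU libraries, and *Pycard* was highest in both polyU libraries.

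Among the sensors, *Nlrp3* and *Mefv* rose by several fold after PNPi+dG/rG+polyU and still further after R848, whereas *Nlrc4* and *Naip5* moved by less than 2-fold in every comparison on the CPM scale. *Nlrp3*, the sensor of potassium efflux and many other cellular disturbances, was at 89.7 and 88.1 CPM in the vehicle libraries, 133 and 122 after polyU, 97.7 and 105 after PNPi+dG/rG, 664 and 622 after PNPi+dG/rG+polyU, and 1231 and 1274 after R848. No library of 1 group overlapped with another group, and the R848 libraries lay far above all others. Against vehicle, *Nlrp3* was 1.43-fold higher after polyU (95% CI 1.33 to 1.55, limma, adjusted p = 1.32e-06), 7.23-fold higher after PNPi+dG/rG+polyU (6.69 to 7.81, adjusted p = 3.94e-16) and 14.1-fold higher after R848 (13.0 to 15.2, adjusted p = 6.92e-18). After PNPi+dG/rG its fold was 1.14 (1.05 to 1.23, adjusted p = 0.157), which did not pass the threshold of 0.05. The intervals are those of the single gene and are not adjusted for the number of genes.

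*Mefv* encodes pyrin, the sensor that responds when bacterial toxins inactivate RhoA. It was at 6.73 and 5.96 CPM with vehicle, 23.0 and 18.5 with polyU, 6.09 and 7.33 with PNPi+dG/rG, 74.3 and 70.8 in PNPi+dG/rG+polyU libraries, and 142 and 145 with R848. The vehicle and PNPi+dG/rG libraries overlapped, and the other 3 groups stood above them without overlap among themselves. *Mefv* rose 3.26-fold after polyU (95% CI 2.76 to 3.84, limma, adjusted p = 1.53e-08), 11.5-fold after PNPi+dG/rG+polyU (9.71 to 13.5, adjusted p = 2.92e-13) and 22.6-fold after R848 (19.2 to 26.7, adjusted p = 7.13e-15). Its fold after PNPi+dG/rG was 1.06 (0.894 to 1.24, adjusted p = 0.923). Of the 9 genes it had both the lowest level per kb in vehicle and the largest rise after R848.

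*Nlrc4* encodes the platform that NAIP proteins activate after they bind flagellin or parts of bacterial secretion systems. It was at 15.4 and 16.5 CPM in vehicle libraries, 24.6 and 26.8 in polyU, 14.7 and 15.5 in PNPi+dG/rG, 23.5 and 23.99 in PNPi+dG/rG+polyU, and 30.1 and 32.9 in R848. Vehicle and PNPi+dG/rG libraries overlapped, and all 6 remaining libraries were higher. The rise was 1.61-fold after polyU (adjusted p = 1.42e-05), 1.49-fold after PNPi+dG/rG+polyU (adjusted p = 2.47e-05) and 1.98-fold after R848 (95% CI 1.74 to 2.25, limma, adjusted p = 3.54e-08), just under the 2-fold limit for a call. Without vehicle replicate 2 or without R848 replicate 1 it passed that limit, at 1.03 and 1.05 on the log2 scale, which made 4 called genes after R848.

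*Naip5*, whose product binds flagellin, was at 19.1 and 19.7 CPM with vehicle, 26.6 and 22.5 with polyU, 20.9 and 19.8 with PNPi+dG/rG, 20.4 and 20.05 in PNPi+dG/rG+polyU libraries, and 10.4 and 10.6 with R848. The polyU libraries were the highest, the R848 libraries were the lowest, and the PNPi+dG/rG and PNPi+dG/rG+polyU libraries overlapped. *Naip5* rose 1.26-fold after polyU (95% CI 1.10 to 1.45, limma, adjusted p = 0.0111), or 0.34 on the log2 scale. This rise no longer passed without vehicle replicate 1, at 0.31, or without polyU replicate 1, at 0.22. After R848 its fold was 0.541 (0.469 to 0.623, adjusted p = 3.74e-07), and after PNPi+dG/rG+polyU it was 1.04 (0.905 to 1.201, adjusted p = 0.596). Of its relatives in the NAIP cluster, named here after their values were seen, *Naip6* fell by 0.89 on the log2 scale after R848 (adjusted p = 5.25e-08) and *Naip2* was 0.35 higher (adjusted p = 4.38e-05). With each library centred on its median gene, as described below, these values were -0.30 (limma, adjusted p = 0.00406) and 0.95 (adjusted p = 3.07e-10). The uncertainty from reads divided between copies may hold for these relatives too.

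The adaptor gene *Pycard*, whose product ASC links NLRP3 or pyrin to caspase-1, followed another order than the sensors. It was at 48.4 and 50.0 CPM with vehicle, 78.6 and 83.0 with polyU, 52.2 and 49.0 with PNPi+dG/rG, 54.9 and 57.6 in PNPi+dG/rG+polyU libraries, and 29.8 and 30.7 with R848. The polyU libraries were the highest and the R848 libraries the lowest, both apart from all others. *Pycard* rose 1.64-fold after polyU (95% CI 1.497 to 1.80, limma, adjusted p = 2.72e-07) and 1.14-fold after PNPi+dG/rG+polyU (1.04 to 1.25, adjusted p = 0.0129), and its fold after R848 was 0.615 (0.561 to 0.675, adjusted p = 3.72e-08). The small rise after PNPi+dG/rG+polyU no longer passed without vehicle replicate 1 (adjusted p = 0.0688) or without PNPi+dG/rG+polyU replicate 2 (adjusted p = 0.0880).

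Both caspase genes rose after polyU, after PNPi+dG/rG+polyU and after R848. *Casp1*, which encodes the protease that matures IL-1β, was at 60.5 and 62.8 CPM with vehicle, 100.2 and 109 with polyU, 65.3 and 63.2 with PNPi+dG/rG, 185 and 198 in PNPi+dG/rG+polyU libraries, and 113 and 122 with R848. The PNPi+dG/rG+polyU libraries were the highest of all, and R848 lay above polyU without overlap, a difference that was not tested. *Casp1* rose 1.69-fold after polyU (95% CI 1.55 to 1.85, limma, adjusted p = 8.72e-08), 3.11-fold after PNPi+dG/rG+polyU (2.85 to 3.40, adjusted p = 9.32e-13) and 1.90-fold after R848 (1.74 to 2.08, adjusted p = 6.14e-10).

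*Casp4*, the gene of caspase-11, was at 12.2 and 12.8 CPM with vehicle, 39.2 and 42.9 with polyU, 15.0 and 15.4 with PNPi+dG/rG, 145 and 154 in PNPi+dG/rG+polyU libraries, and 137 and 144 with R848. The last pair of groups lay next to each other, far above the rest, and the PNPi+dG/rG libraries lay slightly above vehicle. *Casp4* rose 3.29-fold after polyU (95% CI 2.97 to 3.64, limma, adjusted p = 5.20e-11), 11.96-fold after PNPi+dG/rG+polyU (10.8 to 13.2, adjusted p = 5.25e-16) and 11.2-fold after R848 (10.2 to 12.4, adjusted p = 2.74e-16). Its fold after PNPi+dG/rG was 1.22 (1.10 to 1.35, adjusted p = 0.0839). *Casp1*, the neighbouring gene on the same strand, thus had a smaller fold than *Casp4* in each of these 3 comparisons, with intervals of the folds that did not overlap.

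The effector genes moved by less than 2-fold on the CPM scale. *Gsdmd*, the gene of the pore former gasdermin D, was at 74.4 and 74.9 CPM with vehicle, 106 and 118 with polyU, 70.0 and 69.4 with PNPi+dG/rG, 117 and 127 in PNPi+dG/rG+polyU libraries, and 110 and 111 with R848. The polyU libraries overlapped with those of R848 and of PNPi+dG/rG+polyU, R848 and PNPi+dG/rG+polyU did not overlap with each other, and all of these libraries lay above vehicle. *Gsdmd* rose 1.497-fold after polyU (adjusted p = 1.53e-06), 1.63-fold after PNPi+dG/rG+polyU (95% CI 1.49 to 1.78, limma, adjusted p = 3.30e-08) and 1.48-fold after R848 (adjusted p = 2.68e-07).

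*Ninj1*, whose product ruptures the plasma membrane late in lytic death, was at 168 and 182 CPM with vehicle, 274 and 303 with polyU, 188 and 183 with PNPi+dG/rG, 318 and 326 in PNPi+dG/rG+polyU libraries, and 263 and 283 with R848. The polyU and R848 libraries overlapped, and the PNPi+dG/rG+polyU libraries were the highest in CPM. *Ninj1* rose 1.64-fold after polyU (adjusted p = 8.24e-08), 1.84-fold after PNPi+dG/rG+polyU (95% CI 1.69 to 2.00, limma, adjusted p = 1.06e-09) and 1.56-fold after R848 (adjusted p = 3.05e-08). In bulk RNA, fewer cells that express a gene and less of its RNA per cell cannot be told apart, here or for the other genes.

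Levels of different genes were compared as CPM per kb of annotated exon. In vehicle, *Ninj1* was the most abundant at 112 CPM per kb, followed by *Casp1* at 41.2, *Gsdmd* at 31.4, *Nlrp3* at 21.9 and *Pycard* at 13.0. *Naip5* at 3.73, *Casp4* at 3.37 and *Nlrc4* at 3.31 came close together, and *Mefv* was last at 1.95. After PNPi+dG/rG+polyU, *Ninj1* at 205 CPM per kb stayed ahead of *Nlrp3* at 158 and *Casp1* at 128, and *Casp4* had reached 40.3. After R848 the sensor *Nlrp3* led at 309 CPM per kb, above *Ninj1* at 174, while the adaptor *Pycard* stood at 7.96. These orders rest on the exon lengths of all annotated transcripts and not on the isoforms the cells used.

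The counts of members past the test were then set against those of all genes. The test was limma on log2 values of all 5 groups, 2-sided and adjusted by Benjamini-Hochberg over the 11978 genes. A gene "rose" or "fell" at an adjusted p under 0.05 and was "called" if it also changed at least 2-fold. CPM are shares of a library, so strongly induced genes can lower all others, and over all genes the log2 change from vehicle had a median of -0.50 after R848 and -0.22 after PNPi+dG/rG+polyU. After polyU and after PNPi+dG/rG alone the medians were 0.016 and 0.018. Values relative to the median gene, obtained by subtracting from every library the median log2 value of its tested genes, are therefore given beside those on the CPM scale. The 4 comparisons with vehicle share the same 2 vehicle libraries, so errors in those libraries enter all of them.

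After polyU, all 9 genes rose, while 20.6% of all genes tested rose and 18.7% fell. *Casp4* and *Mefv* were called higher and none lower, against 3.21% and 0.776% of all genes. The median fold change of the 9 was 0.72 on the log2 scale. After PNPi+dG/rG without polyU, no member passed in either direction, where 0.409% of all genes rose and 0.392% fell. None was called higher or lower either, against 0.0668% and 0.00835% of all genes. At an unadjusted p under 0.05, 2 genes would pass, *Nlrp3* and *Casp4*, both higher. The 95% intervals of the 9 folds after PNPi+dG/rG reached from 0.834 for *Nlrc4* to 1.35 for *Casp4*, so changes beyond that range lay outside the intervals.

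After PNPi+dG/rG+polyU, 8 of 9 genes rose, all but *Naip5*, while 22.2% of all genes rose and 46.7% fell. *Nlrp3*, *Mefv*, *Casp1* and *Casp4* were called higher and none lower, against 8.12% and 14.3% of all genes. Relative to the median gene, *Naip5* rose as well by 0.27 on the log2 scale (adjusted p = 0.0173) and *Ninj1* was also called, at 1.09. That scaling turned the calls over all genes from 973 higher and 1712 lower to 1192 higher and 1245 lower.

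After R848, 7 genes rose and *Naip5* and *Pycard* fell, while 19.2% of all genes rose and 62.9% fell. *Nlrp3*, *Mefv* and *Casp4* were called higher and none lower, against 8.89% and 30.3% of all genes. Relative to the median gene, *Casp1* at 1.52, *Nlrc4* at 1.58, *Ninj1* at 1.23 and *Gsdmd* at 1.16 on the log2 scale were called too, which made 7. On that scale *Naip5* fell by 0.29 (adjusted p = 0.00934), and the value of *Pycard* was -0.11 (adjusted p = 0.131), which did not pass. Calls over all genes went from 1065 higher and 3633 lower to 1792 higher and 2107 lower under that scaling. The fibroblast markers that stood out in the R848 libraries were led by *Col1a1* at 51.6 and 58.3 CPM and *Col1a2* at 40.9 and 40.2 CPM, and their part in these changes was not tested.

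**Figure D2:**
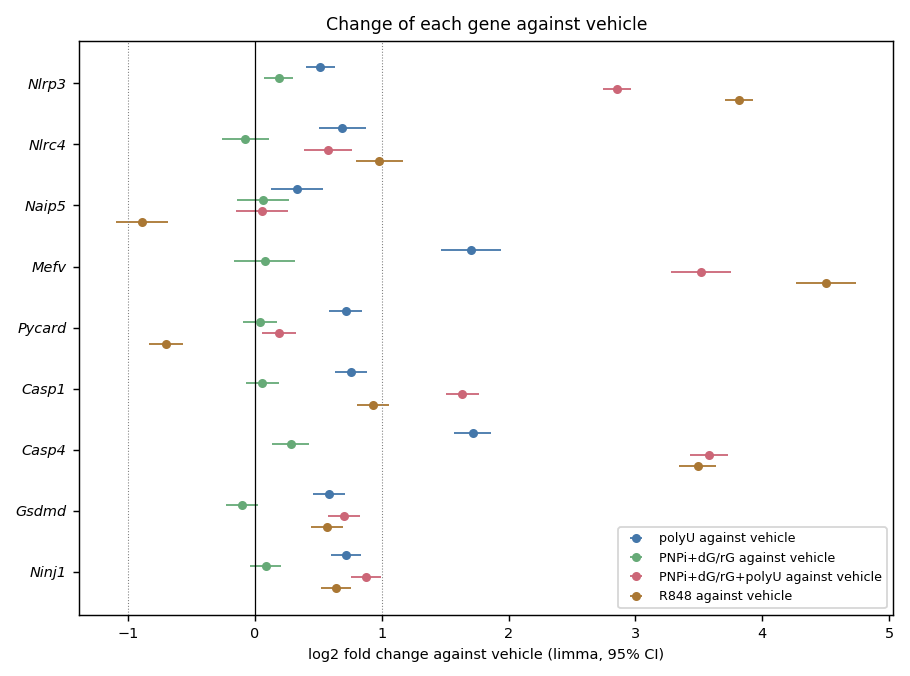
The log2 fold change of each gene against vehicle is plotted for the 4 treatments, with 95% confidence intervals from limma on CPM and dotted lines at 2-fold. *Nlrp3*, *Mefv* and *Casp4* lay beyond 2-fold after PNPi+dG/rG+polyU and R848, PNPi+dG/rG alone stayed near 0, and *Naip5* and *Pycard* were below 0 only after R848, where *Pycard* was at -0.11 relative to the median gene.

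Adding PNPi+dG/rG to polyU raised some of the genes and lowered others. Against polyU, *Nlrp3* was 5.05-fold higher (95% CI 4.67 to 5.45, limma, adjusted p = 1.36e-14), *Casp4* 3.64-fold higher (3.29 to 4.03, adjusted p = 2.37e-12), *Mefv* 3.52-fold higher (2.98 to 4.15, adjusted p = 1.66e-09) and *Casp1* 1.84-fold higher (1.68 to 2.00, adjusted p = 4.16e-09). *Ninj1* rose 1.12-fold (adjusted p = 0.0215), which did not pass without polyU replicate 1 (adjusted p = 0.246) or without either PNPi+dG/rG+polyU library (adjusted p = 0.0504 and 0.116). *Pycard* had a fold of 0.696 (0.634 to 0.763, adjusted p = 2.88e-06) and *Naip5* one of 0.826 (adjusted p = 0.0203). The fall of *Naip5* did not pass without polyU replicate 1 (adjusted p = 0.220) or without either PNPi+dG/rG+polyU library (adjusted p = 0.0542 and 0.0758). Thus 5 of 9 rose and 2 fell, while 15.8% of all genes rose and 47.5% fell. The first 3 genes were called higher and none lower, against 5.29% and 10.2% of all genes. The median of all genes was -0.24 on the log2 scale. Relative to the median gene, *Casp1* was called as well at 1.13, *Ninj1* rose by 0.41 (limma, adjusted p = 1.67e-05) and *Gsdmd* by 0.38 (adjusted p = 8.56e-05). *Pycard* still fell by 0.27 (adjusted p = 0.00190), and *Naip5* was at -0.02 (adjusted p = 0.862). Calls over all genes went from 634 higher and 1219 lower to 829 higher and 755 lower on that scale.

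The interaction asked whether PNPi+dG/rG had another effect with polyU than without it. It was positive and called for *Nlrp3*, *Mefv* and *Casp4*. With polyU, PNPi+dG/rG multiplied *Nlrp3* by 4.43 times more than it did without (95% CI 3.98 to 4.94, limma, adjusted p = 5.69e-12), *Mefv* by 3.33 times more (2.64 to 4.21, adjusted p = 3.37e-07) and *Casp4* by 2.99 times more (2.59 to 3.45, adjusted p = 2.85e-09). *Casp1* followed with 1.76 times (1.55 to 1.99, adjusted p = 1.16e-06) and *Gsdmd* with 1.17 times (1.03 to 1.32, adjusted p = 0.0380). *Pycard* had an interaction of 0.677 times (0.594 to 0.772, adjusted p = 8.88e-05) and *Naip5* of 0.788 times (0.645 to 0.963, adjusted p = 0.0463). For *Ninj1*, 1.05 times (0.936 to 1.18, adjusted p = 0.455), and *Nlrc4*, 0.975 times (0.812 to 1.17, adjusted p = 0.822), the test did not pass.

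In the interaction, 5 genes were thus higher and 2 lower, against 11.8% and 38.9% of all genes. The 3 called higher and 0 called lower stood beside 4.55% and 8.87% of all genes. The median interaction of all genes was -0.27 on the log2 scale. Relative to the median gene *Casp1* was called too, at 1.10, *Gsdmd* was higher by 0.51 (limma, adjusted p = 0.000222) and *Ninj1* by 0.36 (adjusted p = 0.00214). *Pycard* was lower there by a value of -0.27 (adjusted p = 0.0216), and *Naip5* was at -0.06 (adjusted p = 0.773). On that scale the calls over all genes were 751 higher and 567 lower in place of 545 higher and 1062 lower. With each of the 8 libraries left out in turn, the interaction of *Naip5* on the CPM scale did not pass in 7 of 8 fits and that of *Gsdmd* in 6 of 8, with adjusted p-values of up to 0.194 and 0.164, both without polyU replicate 1. *Naip5* passed only without polyU replicate 2, and *Gsdmd* only without that library or without PNPi+dG/rG+polyU replicate 1. Neither passed with no filter on low values (adjusted p = 0.104 for *Naip5* and 0.0851 for *Gsdmd*), and *Gsdmd* did not pass with plain eBayes (adjusted p = 0.0968).

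PNPi+dG/rG+polyU was then compared directly with R848, at the single dose given of each. *Nlrp3* had 0.513 of its R848 level (95% CI 0.475 to 0.554, limma, adjusted p = 2.34e-10), *Mefv* 0.506 (0.429 to 0.597, adjusted p = 1.47e-06) and *Nlrc4* 0.756 (0.664 to 0.859, adjusted p = 0.000686). On the other side, *Naip5* was 1.93-fold higher than after R848 (1.67 to 2.22, adjusted p = 3.46e-07), *Pycard* 1.86-fold higher (1.69 to 2.04, adjusted p = 4.65e-09) and *Casp1* 1.63-fold higher (1.49 to 1.78, adjusted p = 4.22e-08). These 6 kept their direction and passed relative to the median gene, at -1.35 for *Nlrp3*, -1.37 for *Mefv*, -0.79 for *Nlrc4*, 0.56 for *Naip5*, 0.51 for *Pycard* and 0.32 for *Casp1* on the log2 scale.

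*Casp4*, *Gsdmd* and *Ninj1* changed direction with the scaling. On the CPM scale their log2 differences from R848 were 0.09 (limma, adjusted p = 0.261), 0.14 (adjusted p = 0.0470) and 0.24 (adjusted p = 0.00139). Relative to the median gene they were -0.29 (adjusted p = 0.00159), -0.24 (adjusted p = 0.00283) and -0.14 (adjusted p = 0.0369). The difference of *Gsdmd* on the CPM scale did not pass with no filter on low values (adjusted p = 0.0970), with plain eBayes (adjusted p = 0.105), without PNPi+dG/rG+polyU replicate 2 (adjusted p = 0.344) or without either R848 library (adjusted p = 0.150 and 0.0984). The interval of the *Casp4* fold on the CPM scale was 0.961 to 1.18. By count, 5 genes were higher and 3 lower on the CPM scale, against 53.9% and 16.9% of all genes. Relative to the median gene 3 were higher and 6 lower, against 3397 and 4486 of the 11978 genes. The counts of calls that follow are on the CPM scale unless stated. None was called in either direction, against 16.9% called higher and 3.86% called lower over all genes. *Mefv* and *Nlrp3* lay just under the 2-fold limit, and both were called lower without PNPi+dG/rG+polyU replicate 1, as was *Mefv* without R848 replicate 1. Relative to the median gene, with the median of all genes at 0.31, *Mefv* and *Nlrp3* were called lower, and calls over all genes were 1194 higher and 852 lower in place of 2019 and 462. The 5 fibroblast markers summed to at most 0.844 CPM after PNPi+dG/rG+polyU and to at least 103 CPM after R848, and their part in these differences was not tested.

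**Figure D3:**
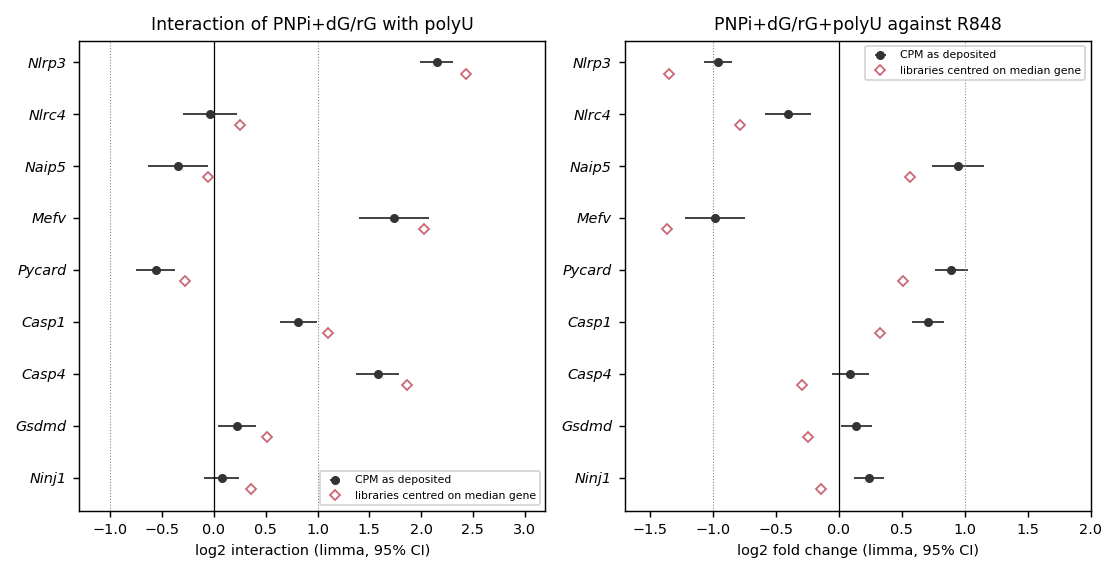
For each gene the left panel plots the log2 interaction of PNPi+dG/rG with polyU and the right panel the log2 difference of PNPi+dG/rG+polyU from R848, as black dots with 95% confidence intervals on CPM and as open diamonds with each library centred on its median gene. *Nlrp3*, *Mefv* and *Casp4* lay above 1 on the left on both scales, and on the right *Casp4*, *Gsdmd* and *Ninj1* were above 0 on CPM and below 0 when centred.

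The wider pathway was followed in 50 other genes of the same machinery, listed by function, of which 41 passed the filter. After polyU 18 of the 41 rose and 7 fell, beside 20.6% and 18.7% of all genes, with 6 called higher, beside 3.21%. After PNPi+dG/rG 1 rose, *Irf1*, and none fell, beside 0.409% and 0.392% of all genes. After PNPi+dG/rG+polyU 20 rose and 17 fell, beside 22.2% and 46.7%, with 9 called higher and 8 lower, beside 8.12% and 14.3%. After R848 15 rose and 21 fell, beside 19.2% and 62.9%, with 9 called in each direction, beside 8.89% higher and 30.3% lower. Relative to the median gene, the counts after R848 were 26 up and 12 down, beside 5146 and 4150 of the 11978 genes. Of these, 11 were called higher and 7 lower, beside 1792 and 2107 of all genes. After PNPi+dG/rG+polyU the counts on that scale were 23 up and 10 down, beside 3979 and 3973 of all genes. There 9 were called higher and 6 lower, beside 1192 and 1245. The median change of the 41 was 0.00 after PNPi+dG/rG+polyU and -0.15 after R848 on the log2 scale of CPM, beside -0.22 and -0.50 for all genes.

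Of the cytokine genes whose products inflammasomes release, *Il1b* and *Il1a* had the largest changes of the list after PNPi+dG/rG+polyU and after R848. *Il1b*, the gene of the main caspase-1 substrate IL-1β, was at 2.13 and 1.97 CPM with vehicle, 3.81 and 3.31 with polyU, 2.11 and 2.30 with PNPi+dG/rG, 661 and 736 in PNPi+dG/rG+polyU libraries, and 6558 and 6751 with R848. R848 libraries lay well above those of PNPi+dG/rG+polyU, and the other 3 groups were within a few CPM of 0. The log2 fold change of *Il1b* was 8.41 after PNPi+dG/rG+polyU (adjusted p = 1.25e-18) and 11.67 after R848 (adjusted p = 1.20e-20), and the former lay 3.25 below the latter (log2 difference -3.25, adjusted p = 4.98e-14). *Il1a*, the gene of the related alarmin IL-1α, went from 1.01 and 1.01 CPM with vehicle to 156 and 173 after PNPi+dG/rG+polyU and to 2020 and 1954 after R848, with a log2 difference between the latter pair of -3.59 (adjusted p = 7.95e-05). *Il18*, the other cytokine that caspase-1 matures, had the opposite order in CPM, at 2.53 and 2.47 CPM with vehicle, 14.4 and 15.0 in PNPi+dG/rG+polyU libraries, and 9.72 and 8.97 with R848, with a log2 difference of 0.66 (adjusted p = 0.00107) that was 0.27 relative to the median gene (adjusted p = 0.122).

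Among the guanylate-binding proteins, which expose bacterial lipopolysaccharide to caspase-11, all 4 listed genes were called higher after polyU, after PNPi+dG/rG+polyU and after R848. *Gbp5* was at 3.87 and 2.70 CPM with vehicle, 33.9 and 39.5 with polyU, 406 and 406 in PNPi+dG/rG+polyU libraries, and 294 and 310 with R848. *Gbp2*, *Gbp3* and *Gbp7* changed by 4.05, 4.76 and 4.29 on the log2 scale after PNPi+dG/rG+polyU and by 3.51, 4.02 and 3.73 after R848. In CPM all 4 were higher after PNPi+dG/rG+polyU than after R848 (adjusted p of at most 0.0371), and relative to the median gene this difference passed for *Gbp3*, at 0.35 (adjusted p = 0.0110), but not for *Gbp2* at 0.15 (adjusted p = 0.156), *Gbp7* at 0.18 (adjusted p = 0.192) or *Gbp5* at 0.04 (adjusted p = 0.836). The factor gene *Irf1*, needed for much of their transcription, was at 21.5 and 22.2 CPM with vehicle, 102 and 115 with polyU, 27.6 and 29.6 with PNPi+dG/rG, 261 and 242 in PNPi+dG/rG+polyU libraries, and 63.0 and 69.4 with R848. Its log2 difference of PNPi+dG/rG+polyU from R848 was 1.93 (adjusted p = 3.34e-12), called higher. *Irf8*, which drives NAIP genes, had the lowest level after PNPi+dG/rG+polyU, at 76.2 and 76.9 CPM against 222 and 239 with vehicle. It was at 150 and 156 CPM with polyU and at 153 and 163 with R848. Relative to the median gene, its log2 change from vehicle was -1.38 after PNPi+dG/rG+polyU and -0.64 after polyU. After R848 that value was 0.05 (limma, adjusted p = 0.420), which did not pass.

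Several other sensors fell. *Nlrp1b*, a sensor of protease activity, was at 27.6 and 32.3 CPM with vehicle, 25.3 and 22.2 with polyU, 25.0 and 22.3 with PNPi+dG/rG, 5.73 and 5.70 in PNPi+dG/rG+polyU libraries, and 0.903 and 0.888 with R848. *Nlrp1a* and *Nlrp10* were called lower after PNPi+dG/rG+polyU, at -1.12 and -2.77 on the log2 scale, and after R848, at -2.34 and -3.04. Relative to the median gene, *Nlrp1a* fell by less than 2-fold after PNPi+dG/rG+polyU. *Nlrp10* was low from the start, at 3.14 and 3.09 CPM with vehicle. Its values rested on 6 and 7 reads after PNPi+dG/rG+polyU and on 8 and 11 reads after R848. *P2rx7*, the ATP-gated channel upstream of NLRP3, went from 56.9 and 58.3 CPM with vehicle to 22.9 and 26.1 after PNPi+dG/rG+polyU and to 9.93 and 10.6 after R848. *Nlrc3*, described as a brake on these pathways, and *Gsdme*, a pore former related to gasdermin D, were called lower after both treatments, *Nlrc3* at -2.50 and -3.63 and *Gsdme* at -2.03 and -2.71. *Panx1*, the gene of an ATP-releasing channel, and *Ripk3*, the gene of a necroptosis kinase, were called lower after R848, at -1.06 and -1.31, and lay above their R848 level after PNPi+dG/rG+polyU by 0.80 and 0.98 (adjusted p of at most 3.54e-06). *Txnip*, whose product binds NLRP3 under oxidative stress, was called lower after PNPi+dG/rG+polyU, at -1.07, and differed from its R848 level by -1.15 (adjusted p = 2.19e-10). Relative to the median gene, *Panx1*, *Ripk3* and *Txnip* fell by less than 2-fold, at -0.46, -0.72 and -0.85 in those comparisons with vehicle. The nucleic acid sensor gene *Zbp1* was called higher in both, at 3.24 and 2.44.

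**Figure D4:**
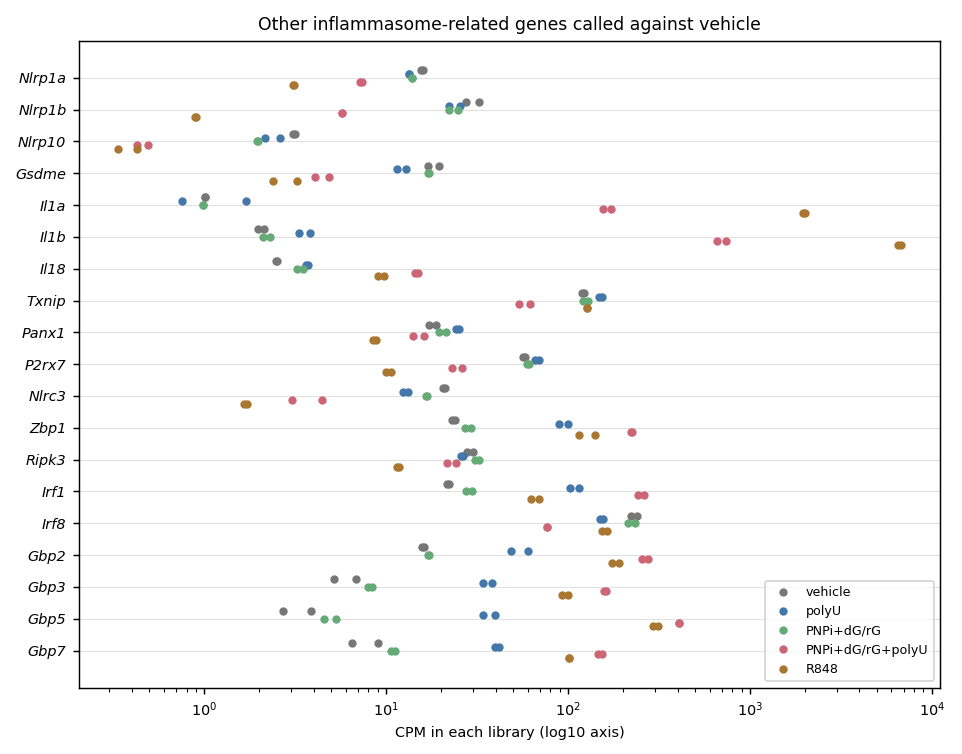
The CPM of the other named pathway genes called against vehicle after PNPi+dG/rG+polyU or R848 are plotted on a log10 axis, with 1 dot per library and 1 colour per group. *Il1b* and *Il1a* were highest in R848, *Irf1*, *Zbp1* and the 4 *Gbp* genes were highest in CPM in PNPi+dG/rG+polyU, though relative to the median gene the excess of *Gbp2*, *Gbp5* and *Gbp7* over R848 did not pass, and *Nlrp1b* was lowest in R848.

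The genes whose pattern was most like that of each called member were found by the root mean square difference of log2 values, each relative to its vehicle mean, over the 8 treated libraries and among the 8459 tested genes averaging 10 CPM or more. For *Nlrp3* they were *Samsn1* (difference 0.104), *Foxp4* (0.124) and *Tnfaip3* (0.159). For *Mefv* they were *Gpr84* (0.233), *Nod2* (0.277) and *Adam19* (0.333). For *Casp1* they were *Jdp2* (0.124), *Gm20559* (0.158) and *Gm8995* (0.158). For *Casp4* they were *Rassf4* (0.0886), *Map3k8* (0.163) and *Ifi211* (0.222). All of these genes share the same libraries and vehicle means, and the likeness is a description with no test. No member of the 9 was among the nearest genes of another.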

How the data were processed

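Reads of 50 bp from stranded mRNA libraries were sequenced on a HiSeq 3000. Per the labels and the methods of the study, the authors demultiplexed with bcl2fastq 2.19.1.403, mapped to GRCm38 with STAR 2.27a, counted on Ensembl release 97 genes and deposited CPM with an offset of 0.0001. How reads shared by several genes or strands were counted is not given in the sources used here. Depth was read from the equal steps between low values, of which 100% were whole reads in every library (within 0.1 of a read). Replicates were separate libraries, since 15.8% to 26.3% of genes with at least 50 reads differed between them by chi-square at 0.05.

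Log2 of the deposited values was fitted with limma 3.58.1 (R 4.3.3, statmod 1.5.0; eBayes with trend and robust estimates) to all 10 libraries in 1 model of 5 groups, with Benjamini-Hochberg adjustment over the genes tested. Fold changes are on the log2(CPM + 0.0001) scale. The scripts were tested on simulated data. Figures used matplotlib 3.10.9 and group values pandas 2.3.3.

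Named genes are all 9 members, pathway-list genes called against vehicle after PNPi+dG/rG+polyU or R848, pathway genes under the filter, and the 3 nearest genes of each called member. The values of 1 pathway-list gene are not reported here, though list counts include it. The members and lists were chosen with earlier results of these data known. Gene positions come from GENCODE M21 (Ensembl release 96), 1 release before that of the authors. Alternatives were pseudocounts of 0.1 and 1, no filter, a filter on the mean, centring on the median gene, plain eBayes, fits of only the groups compared, a replicate block and leaving out each library.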

Additional observations from a re-analysis of the deposited data

Results flagged for a closer look

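The effect of PNPi+dG/rG differed between BMDMs with and without polyU for 3 of the 9 genes, as tested by the interaction in limma and called at 2-fold. These were called higher, beside 4.55% of all genes called higher and 8.87% called lower. The log2 interaction was 2.15 for *Nlrp3* (adjusted p = 5.69e-12), 1.74 for *Mefv* (adjusted p = 3.37e-07) and 1.58 for *Casp4* (adjusted p = 2.85e-09). All 3 were called under every alternative tried for the interaction, and each gene was higher in both PNPi+dG/rG+polyU libraries than in any polyU, PNPi+dG/rG or vehicle library.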

How the results depend on the processing

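Of 792 values of members under alternatives, 748 kept their side of the threshold, 35 no longer passed, 6 passed where they had not, and 3 reversed. Of the 748, 7 changed sign, and neither their main nor their alternative value passed. The reversed values, all of PNPi+dG/rG+polyU against R848 with libraries centred on the median gene, were -0.29 for *Casp4*, -0.24 for *Gsdmd* and -0.14 for *Ninj1*, since that scaling moves the difference of every gene by the same amount. Centring moved the number of members called from 3 to 7 for R848 against vehicle and from 0 to 2 for PNPi+dG/rG+polyU against R848. For R848 against vehicle, leaving out 1 library gave 3 to 4 calls, with *Nlrc4* added without vehicle replicate 2 or R848 replicate 1. For PNPi+dG/rG+polyU against R848, leaving out 1 library gave 0 to 2 calls, namely 2 without PNPi+dG/rG+polyU replicate 1 and 1 without R848 replicate 1.

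Over the whole table, the 9 calls of PNPi+dG/rG against vehicle became 1 and 0 with pseudocounts of 0.1 and 1, 16 without a filter, 4 with a filter on the mean, 4 with only the groups compared, and 2 to 29 with 1 library left out, and the 478 calls of polyU became 303 with a pseudocount of 1. Across 8459 genes, same-numbered libraries did not deviate together as a rule. The median r was -0.023, from -0.286 to 0.109 over 10 pairs of groups, and the replicate numbers were taken as names. The most negative values were those of PNPi+dG/rG with vehicle, at -0.286, and with polyU, at -0.273. Deviations may thus be shared between libraries of unlike number, which a block on the number would not remove. With the replicate block, *Casp4* after PNPi+dG/rG passed at a log2 fold change of 0.28 (adjusted p = 0.0485), and no other member's side of the threshold changed. Only 2 libraries per group and 50 bp reads limit what can be said of small changes and of *Naip5*.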

Other observations

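The 5 listed genes of the ESCRT machinery, which patches gasdermin pores, were never called. After polyU 3 rose and 1 fell, beside 20.6% and 18.7% of all genes. After PNPi+dG/rG+polyU 3 rose and 1 fell, beside 22.2% and 46.7%. After R848 2 rose and 1 fell, beside 19.2% and 62.9%. Relative to the median gene all 5 rose after R848, where 5146 of the 11978 genes rose and 4150 fell. On that scale 4 rose and none fell after PNPi+dG/rG+polyU, where 3979 of all genes rose and 3973 fell. *Chmp2a* and *Chmp4b*, parts of the membrane-cutting filament and named here after their values were seen, rose after polyU (log2 fold change 0.50 and 0.32), after PNPi+dG/rG+polyU (0.58 and 0.48) and after R848 (0.29 and 0.34), with limma adjusted p-values of at most 0.000172 in these 6 tests. *Vps4b*, the gene of an ATPase that takes the filament apart and likewise named after its values, fell after polyU (-0.18, adjusted p = 0.00631) and after PNPi+dG/rG+polyU (-0.27, adjusted p = 9.55e-05, but -0.06 relative to the median gene, which did not pass). *Chmp3* fell after R848 (-0.24, adjusted p = 0.000376), but was 0.36 higher relative to the median gene (adjusted p = 5.91e-06).

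Of the pathway genes under the filter, the pore former genes *Gsdma* and *Gsdmc* and the ubiquitin ligase gene *Trim31* had no read in any of the 10 libraries, which allows up to 0.212 CPM in the shallowest. *Casp12* had a mean of 0.0281 CPM in vehicle, 0.424 after PNPi+dG/rG+polyU and 0.601 after R848, and was not tested. *Serpinb1a*, an inhibitor of inflammatory caspases, had a mean of 0.533 CPM in vehicle and no read in the R848 libraries.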
